A study of Mus musculus with 12 samples.

Results

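MHC class II antigen presentation was followed through 8 genes in messenger RNA from mouse colonic mucosa: H2-Aa, H2-Ab1, H2-Eb1, Cd74, Ciita, H2-DMa, H2-DMb1 and H2-DMb2. They were taken by symbol from the 38087 genes with an Ensembl identifier in the deposited counts, and all 8 passed the filter on low counts that left 13889 genes for testing. The tissue came from 6 samples of Sgo1-/+ mice and 6 samples of wild type mice. Sgo1 encodes shugoshin 1, which protects the cohesion of sister chromatids at the centromere, and the series was made to ask what chromosome instability does to the colon. Both genotypes had been given azoxymethane, which causes colon tumours, in doses of 4 mg/kg 2 times a week from 8 to 12 weeks of age. They were kept without further treatment until 9 months of age, when the mucosa was taken. The Sgo1-/+ mice carry 1 altered allele, neither its structure nor the strain is given in the labels, and no sample without azoxymethane was analysed here. Whether each sample is a mouse of its own is not in the labels, so p-values cover only how these samples vary among themselves, which may be technical.

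MHC class II molecules are pairs of an alpha and a beta chain that display peptides from ingested proteins to CD4 T cells. The pair is built around the invariant chain, travels to the endosome, loses that chain to proteases, and exchanges its last remnant for peptide with the help of the DM heterodimer. In the gut the molecules are carried by B cells, dendritic cells and macrophages, and in inflamed mucosa by the epithelium as well, where interferon gamma induces them through the coactivator CIITA. Mouse class II genes other than those for the invariant chain and CIITA lie in the MHC on chromosome 17, and their promoters carry a conserved pair of elements, the X box and the Y box, bound by RFX and NF-Y.

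The mucosa libraries held 5414150 to 9936818 counts each. The epithelial markers were abundant, as the labelled tissue calls for, with Epcam at 957 to 1449 CPM (counts scaled to a common library size with TMM factors) in Sgo1-/+ libraries and 897 to 1405 CPM in wild type libraries. The targeted gene, listed as Sgol1, was at 2.33 ± 0.41 CPM in Sgo1-/+ libraries and 3.65 ± 1.79 CPM in wild type libraries (SD, n = 6 each), a log2 change of -0.67 that did not pass in edgeR (adjusted p = 0.551). Wild type replicate 2 had the highest Sgo1 level, 6.8 CPM, and without it the log2 change was -0.35 (edgeR unadjusted p = 0.247). Wild type replicate 1 had the lowest Sgo1 level of all 12 libraries, 1.49 CPM on 9.5 counts, beside 1.84 CPM in the lowest Sgo1-/+ library. It so went against its label on this gene, though on few counts. Without it the log2 change was -0.83 (edgeR unadjusted p = 0.0123). Leaving out a library by its Sgo1 level moves this estimate by construction, so neither p tests the genotype. A set of 4 abundant mitochondrial-like rows took 14.76% to 42.2% of counts in Sgo1-/+ libraries and 18.28% to 46.52% in wild type libraries. Wild type replicate 6 stood apart from the other 11 libraries in several of the 8 genes, and wild type replicate 1 in H2-DMb1, so log2 changes that reverse or move by over 1.5 times without either library are given both ways.

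The promoters are given because class II genes are known for the X box and Y box. The windows show which of these genes held the particular letters searched here near a start. RefSeq promoters of build GRCm38.p6, 250 bases before to 50 bases after a start, were matched for 5 of the 8 genes, namely H2-Aa, H2-Eb1, H2-DMa, H2-DMb1 and H2-DMb2. Capitals mark the letters AACNGATG (an X-type motif) and TGATTGG (a Y-type motif), searched on both strands of 32851 promoters. The letters were chosen after reading these promoters. The windows lie at chr17:34305617-34305916 (plus strand) for H2-Eb1, chr17:34152941-34153240 (plus strand) for H2-DMb1, chr17:34144999-34145298 (plus strand) for H2-DMb2 and chr17:34287774-34288073 (minus strand) for H2-Aa.
H2-Eb1: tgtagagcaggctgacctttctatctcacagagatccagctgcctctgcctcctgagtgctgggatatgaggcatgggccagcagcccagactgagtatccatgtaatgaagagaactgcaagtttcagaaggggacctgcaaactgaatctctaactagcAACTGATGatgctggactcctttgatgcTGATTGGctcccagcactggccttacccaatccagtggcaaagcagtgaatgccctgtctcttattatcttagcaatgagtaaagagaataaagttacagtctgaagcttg
H2-DMb1: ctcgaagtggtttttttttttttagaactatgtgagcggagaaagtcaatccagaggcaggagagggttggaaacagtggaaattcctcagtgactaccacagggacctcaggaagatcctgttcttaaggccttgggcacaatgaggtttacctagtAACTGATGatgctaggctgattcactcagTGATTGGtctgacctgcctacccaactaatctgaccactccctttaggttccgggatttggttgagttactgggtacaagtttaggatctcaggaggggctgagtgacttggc
H2-DMb2: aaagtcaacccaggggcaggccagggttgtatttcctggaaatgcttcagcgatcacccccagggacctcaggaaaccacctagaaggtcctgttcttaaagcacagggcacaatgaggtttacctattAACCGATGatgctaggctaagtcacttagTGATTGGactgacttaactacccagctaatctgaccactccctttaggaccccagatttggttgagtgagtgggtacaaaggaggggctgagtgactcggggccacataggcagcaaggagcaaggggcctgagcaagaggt
H2-Aa: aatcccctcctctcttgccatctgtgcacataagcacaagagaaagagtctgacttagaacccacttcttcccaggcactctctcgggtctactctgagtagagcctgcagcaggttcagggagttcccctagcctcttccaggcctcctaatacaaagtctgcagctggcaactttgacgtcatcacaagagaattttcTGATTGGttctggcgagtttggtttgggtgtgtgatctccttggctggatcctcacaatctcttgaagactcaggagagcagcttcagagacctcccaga

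H2-Eb1, H2-DMb1 and H2-DMb2 held the X-type motif followed by the Y-type motif on the gene's strand. The number of bases between the motifs was 20 in H2-Eb1 and 21 in both DM beta genes. The X-type motif began 89 bases before the start in H2-Eb1, 92 in H2-DMb1 and 121 in H2-DMb2. Of 32851 promoters, 2.32% held the X-type letters, 7.82% the Y-type letters, and 6 (0.0183%) held the X-type letters with the Y-type letters 10 to 30 bases on. Those 6 included H2-Eb2, a further class II beta gene, beside the 3 named. The rest of the 6 are not named here. As the letters were chosen on the class II promoters, the small share does not show that the pair is particular to class II genes. Of the letters searched, H2-Aa held only the Y-type ones, beginning 50 bases before the start. Other spellings of an X box were not searched, so this is no sign that H2-Aa lacks one. The H2-DMa windows, at chr17:34122582-34122881 and chr17:34125268-34125567 (plus strand), lie upstream of the deposited position of H2-DMa, which begins at 34135182. Neither of these windows held either motif, and the bases next to that position were not searched. The H2-DMb1 and H2-DMb2 promoters were 84.2% identical over 247 aligned bases. A match of letters is a description of the window and no measure of binding.

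The chain genes and Cd74 were the most abundant class II transcripts by median level in both genotypes, though in wild type replicate 1 H2-DMb1 was the highest of the 8 in CPM, at 82.4 of 136.6 CPM summed. Per kilobase of exon in GENCODE M21, Cd74 was the highest at 25.8 ± 12.8 CPM per kb in Sgo1-/+ libraries and 31.4 ± 34.7 CPM per kb in wild type libraries (SD, n = 6 each). In Sgo1-/+ libraries H2-Eb1 came next, at 6.24 ± 1.67 CPM per kb, and it had 7.62 ± 5.18 CPM per kb in wild type libraries, where the means of H2-DMb1 and H2-Ab1 lay above it. H2-Ab1 had 6.15 ± 3.25 CPM per kb in Sgo1-/+ libraries and 8.94 ± 10.2 CPM per kb in wild type libraries, and H2-Aa had 4.49 ± 1.92 CPM per kb in Sgo1-/+ libraries and 6.10 ± 6.82 CPM per kb in wild type libraries. The ranges of mean ± SD of these 3 chain genes overlapped in each genotype. They were measured in the same libraries, and differences between them were not tested. In Sgo1-/+ libraries the DM genes were lower, at 2.71 ± 3.81 CPM per kb for H2-DMb1, 1.87 ± 1.13 for H2-DMb2 and 0.663 ± 0.161 for H2-DMa. In wild type libraries the corresponding means were 9.01 ± 19.6 CPM per kb for H2-DMb1, 2.53 ± 1.32 for H2-DMb2 and 0.815 ± 0.169 for H2-DMa. Ciita was the lowest, at 0.162 ± 0.0818 CPM per kb in Sgo1-/+ libraries and 0.167 ± 0.134 CPM per kb in wild type libraries. The wild type SD of 4 genes, Cd74, H2-Ab1, H2-Aa and H2-DMb1, was larger than their mean, so medians are given beside the means in what follows.

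No difference in the 8 class II genes between Sgo1-/+ and wild type mucosa passed the test, and each was smaller than the spread between libraries allows to be told apart from 0. In edgeR, 0 of 8 passed an adjusted p of 0.05, where 0.00% of all 13889 genes passed. At an unadjusted p under 0.05 there were again 0 of 8, against 9.04% of all genes (1256, of which 4.31% of all were higher and 4.73% lower). DESeq2 called 0 of the 8 and 0.207% of its 19341 genes (40), but it gave H2-DMb1 no p-value, so that gene was not tested there. The log2 change was below 0 for all 8, where 49% of all genes lay above 0. Its median was -0.38 over the 8 genes and -0.01 over all genes tested. That direction depended on single libraries. Without wild type replicate 6 the log2 change was above 0 for 5 of the 8 genes and the median was 0.22, while H2-DMa, H2-DMb1 and H2-DMb2 stayed below 0. Without wild type replicate 1 it was 1.36 for H2-DMb1, and Ciita was also above 0 without some other libraries. With library totals alone in place of TMM factors, the median of all genes moved to a log2 change of 0.31, and 2 of the 8 genes (Ciita and H2-Eb1) were above 0. Under neither scaling did any of the 8 lie above the median of all genes. In bulk tissue, fewer cells of a type and less RNA per cell cannot be told apart.

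**Figure D1:**
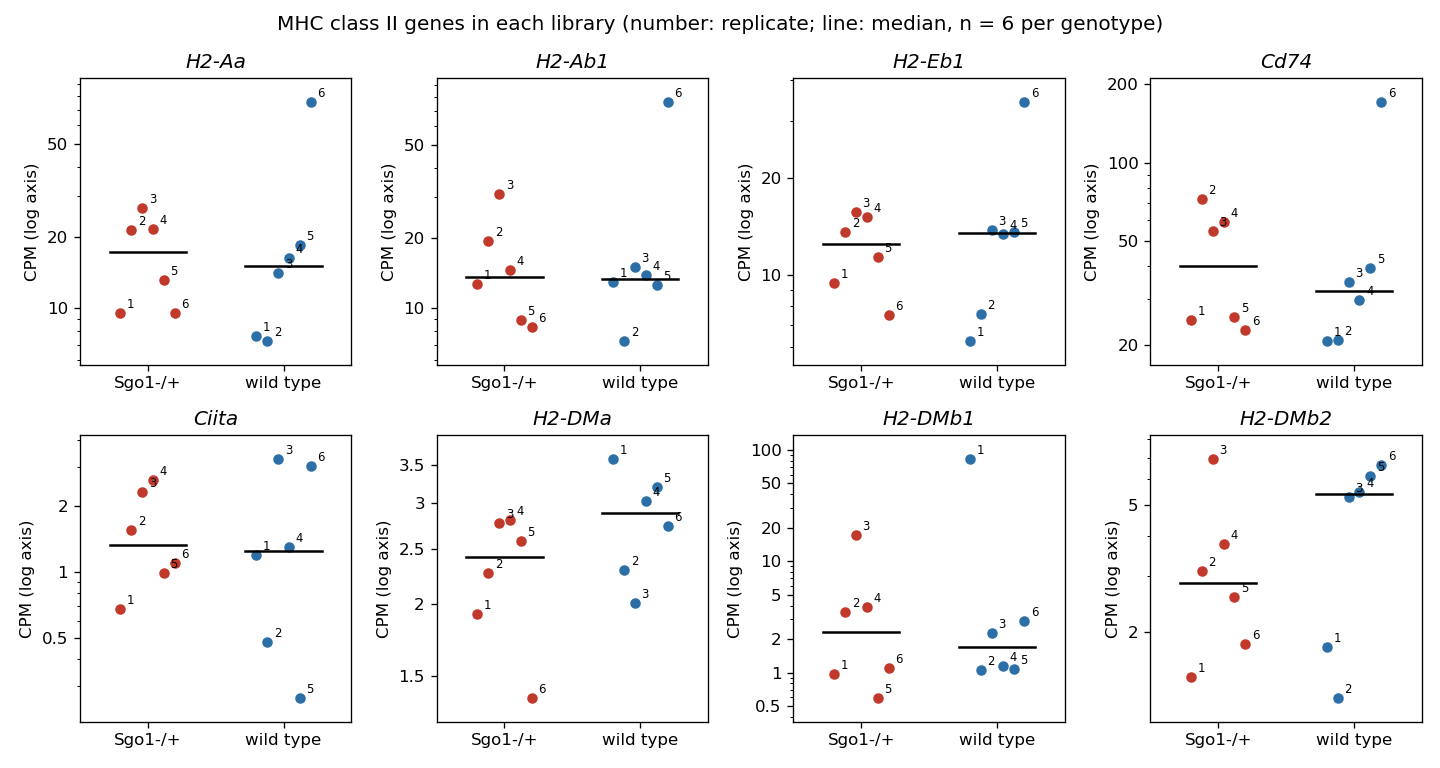
CPM of each of the 8 class II genes (log axis) in the 6 Sgo1-/+ libraries (red, left) and the 6 wild type libraries (blue, right), where numbers are replicates and lines are medians. Wild type replicate 6 lies above every other library for H2-Aa, H2-Ab1, H2-Eb1 and Cd74, and wild type replicate 1 lies at 82.4 CPM for H2-DMb1.

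H2-Aa (ENSMUSG00000036594, positions 34282744 to 34287827 of chromosome 17 in mm10, minus strand) encodes the alpha chain of the I-A molecule. Its lowest, median and highest levels were 9.54, 17.4 and 26.8 CPM in Sgo1-/+ libraries, against 7.28, 15.2 and 75.2 CPM in wild type libraries. Sgo1-/+ replicates 2, 3 and 4 were the high libraries of their genotype, at 21.6, 26.8 and 21.7 CPM, and wild type replicate 6 was 5.34 times the median of the other 5 wild type libraries. The genotypes' ranges overlapped. The mean was 17.05 ± 7.27 CPM in Sgo1-/+ libraries and 23.2 ± 25.9 CPM in wild type libraries (SD, n = 6 each). The difference on the log2 scale was -0.46 ± 0.53 (SE, 95% interval -1.59 to 0.68; edgeR adjusted p = 0.8004). Without wild type replicate 6 the log2 change was 0.42.

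H2-Ab1 (ENSMUSG00000073421, positions 34263209 to 34269418 of chromosome 17, plus strand) encodes the beta chain that pairs with H2-Aa. Its lowest, median and highest levels were 8.35, 13.7 and 30.7 CPM in Sgo1-/+ libraries, against 7.28, 13.4 and 76.1 CPM in wild type libraries. The same wild type library was the high one, at 5.86 times the median of the other 5, and Sgo1-/+ replicate 3 was the highest of its genotype. Sgo1-/+ over wild type, the log2 change of H2-Ab1 was -0.57 ± 0.53 (SE, 95% interval -1.71 to 0.58; edgeR adjusted p = 0.753), and 0.35 without wild type replicate 6.

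H2-Eb1 (ENSMUSG00000060586, positions 34305883 to 34316199 of chromosome 17, plus strand) encodes the beta chain of the I-E molecule. It spanned 7.52 to 15.7 CPM with a median of 12.5 in Sgo1-/+ libraries, against 6.26 to 34.2 CPM with a median of 13.5 in wild type libraries. Its spread was narrower than that of the I-A genes in both genotypes, with the highest library 2.09 times the lowest in Sgo1-/+ and 5.46 times in wild type. Its log2 change was -0.29 ± 0.36 (SE, 95% interval -1.06 to 0.47; edgeR adjusted p = 0.812), with 0.16 when wild type replicate 6 was left out and -0.45 when wild type replicate 1 was. The alpha chain of I-E is listed as the pseudogene H2-Ea-ps, which held at most 1 count in any of the 12 libraries, so that at this depth no partner transcript for H2-Eb1 was measurable in either genotype. Gm20513 overlaps H2-Eb1 on the opposite strand, and no source used here says whether reads were counted by strand.

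Cd74 (ENSMUSG00000024610, positions 60803848 to 60812646 of chromosome 18, plus strand) encodes the invariant chain, the chaperone that fills the peptide groove on the way to the endosome. Its levels in Sgo1-/+ replicates 1 to 6 were 25.0, 72.5, 54.7, 59.3, 25.6 and 22.8 CPM. In wild type replicates 1 to 6 they were 20.7, 20.8, 34.7, 29.6, 39.5 and 170.6 CPM. The median was 40.2 CPM in Sgo1-/+ libraries and 32.1 CPM in wild type libraries. The means lay in the opposite order, at 43.3 CPM in Sgo1-/+ and 52.6 CPM in wild type. The Sgo1-/+ libraries fell into 3 high and 3 low ones with none between 25.6 and 54.7 CPM, and the 3 high ones were also the 3 highest of their genotype for H2-Aa. Wild type replicate 6 was 5.77 times the median of the other 5 wild type libraries. The log2 change was -0.29 ± 0.52 (SE, 95% interval -1.41 to 0.84; edgeR adjusted p = 0.880), with 0.59 when wild type replicate 6 was left out and -0.45 when wild type replicate 1 was.

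Ciita (ENSMUSG00000022504, positions 10488178 to 10527564 of chromosome 16, plus strand) encodes the coactivator that switches on the other class II genes. It was measured on few reads, at most 32.8 counts in a library. It spanned 0.67 to 2.64 CPM with a median of 1.32 in Sgo1-/+ libraries, against 0.27 to 3.27 CPM with a median of 1.25 in wild type libraries. The high wild type libraries were replicates 3 and 6. For Ciita the log2 change was -0.04 ± 0.53 (SE, 95% interval -1.18 to 1.10; edgeR adjusted p = 0.986). It was 0.28 without wild type replicate 6 and -0.11 without wild type replicate 1. The interval spans more than a log2 unit on either side, so a doubling or halving of this transcript could not be told apart from no difference at this depth.

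H2-DMa (ENSMUSG00000037649, positions 34135182 to 34139101 of chromosome 17, plus strand) encodes the alpha chain of DM, the molecule that edits the peptides class II binds. It was the steadiest of the 8 genes. It spanned 1.38 to 2.80 CPM with a median of 2.42 in Sgo1-/+ libraries, against 2.01 to 3.58 CPM with a median of 2.89 in wild type libraries. Each of the 6 Sgo1-/+ libraries lay below the wild type median, and the ranges overlapped. Its log2 change was -0.30 ± 0.25 (SE, 95% interval -0.84 to 0.23; edgeR adjusted p = 0.720), and -0.31 without wild type replicate 6, in which H2-DMa was at 0.905 times the median of the other 5. In the annotation H2-DMa overlaps Brd2, and 8.43% of its words of 50 bases occur in other genes.

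H2-DMb2 (ENSMUSG00000037548, positions 34143307 to 34151553 of chromosome 17, plus strand) and H2-DMb1 (ENSMUSG00000079547, positions 34153072 to 34160223, plus strand) are neighbouring copies that encode DM beta chains. H2-DMb2 was at 1.45, 3.10, 6.93, 3.76, 2.57 and 1.84 CPM in Sgo1-/+ replicates 1 to 6. In wild type replicates 1 to 6 it was at 1.79, 1.25, 5.28, 5.48, 6.13 and 6.64 CPM. Of the Sgo1-/+ libraries 1 lay above the wild type median, and the ranges overlapped nearly in full. The log2 change was -0.45 ± 0.46 (SE, 95% interval -1.45 to 0.54; edgeR adjusted p = 0.770), and -0.28 without wild type replicate 6.

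H2-DMb1 varied more between libraries than any other of the 8 genes. It was at 0.96, 3.51, 17.3, 3.84, 0.59 and 1.10 CPM in Sgo1-/+ replicates 1 to 6. In wild type replicates 1 to 6 it was at 82.4, 1.05, 2.26, 1.15, 1.07 and 2.89 CPM. The median was 2.31 CPM in Sgo1-/+ libraries and 1.71 CPM in wild type libraries. The means lay in the opposite order, at 4.55 CPM in Sgo1-/+ and 15.1 CPM in wild type. Wild type replicate 1 held 553 counts of H2-DMb1, which is 71.5 times the median CPM of the other 5 wild type libraries, and Sgo1-/+ replicate 3 held 75 counts. In the library with 553 counts of H2-DMb1, H2-DMb2 had 11.7 counts, H2-Aa was at 7.60 CPM and Cd74 at 20.7 CPM, each at the low end of the 12 libraries. The ratio of H2-DMb1 to H2-DMb2 was 0.23 to 2.50 in Sgo1-/+ libraries, against 0.17 to 0.85 in 5 wild type libraries and 46.1 in wild type replicate 1. The log2 change was -1.87 ± 1.19 (SE, 95% interval -4.44 to 0.70; edgeR adjusted p = 0.649). When wild type replicate 1 was left out, the estimate became 1.36 ± 0.81. The copies share sequence, since 22.7% of the words of 50 bases in H2-DMb1 and 25.9% of those in H2-DMb2 occur in other genes, so the split of reads between them is uncertain. With both rows added together the log2 change was -1.40.

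**Figure D2:**
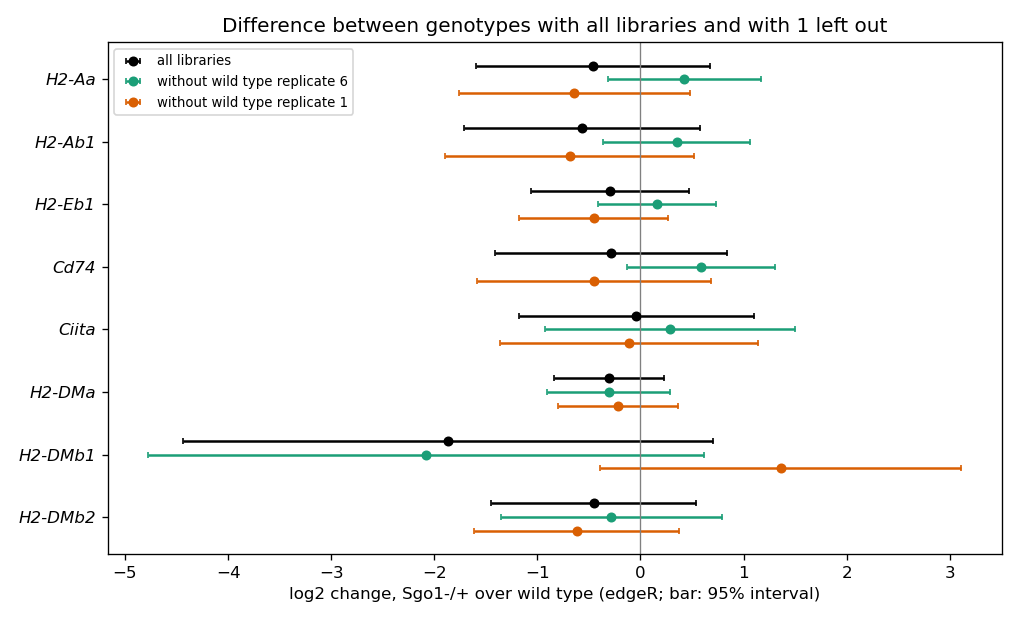
Log2 change of each class II gene, Sgo1-/+ over wild type, with its 95% interval from edgeR, for all 12 libraries (black), without wild type replicate 6 (green) and without wild type replicate 1 (orange). Every interval with all libraries includes 0, while the estimate for H2-Aa is 0.42 without replicate 6 (-0.46 with all) and that for H2-DMb1 is 1.36 without replicate 1 (-1.87 with all).

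The chain genes and Cd74 moved together from library to library, in both genotypes. Over all 12 libraries H2-DMa, H2-DMb1 and Ciita did not pass the same test, though within Sgo1-/+ alone their r with H2-Aa was high. Over the 12 libraries the log2 CPM of H2-Aa was compared with each of the other 7 genes and with 5 summed marker lists, 12 relations in all, and 4 passed a Benjamini-Hochberg adjusted p of 0.05 by two-sided permutation with 100000 resamples. Values of 1 library share its total and its TMM factor.

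With H2-Eb1, the relation gave Pearson's r = 0.970 and Spearman's rho = 0.937 (permutation p = 2e-05 for each, adjusted p = 0.00012 for each, n = 12). Without wild type replicates 6 and 2, the libraries farthest from the median of H2-Aa, r was 0.925. Within genotypes r was 0.951 in Sgo1-/+ and 0.978 in wild type. Cd74 followed H2-Aa as closely, with r = 0.962 and rho = 0.958 (permutation p = 1e-05 for each, the smallest that 100000 resamples can give, adjusted p = 0.00012 for each). Its r was 0.904 without the 2 farthest libraries, 0.923 within Sgo1-/+ and 0.983 within wild type.

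H2-Ab1, the partner chain, gave r = 0.904 (permutation p = 0.00018, adjusted p = 0.00072) and rho = 0.818 (permutation p = 0.00187, adjusted p = 0.00561). Without the 2 farthest libraries its r was 0.689, and within genotypes 0.834 in Sgo1-/+ and 0.933 in wild type. H2-DMb2 gave r = 0.787 (permutation p = 0.00122, adjusted p = 0.00366) and rho = 0.867 (permutation p = 0.00066, adjusted p = 0.00264). Its r without the 2 farthest libraries was 0.796, and 0.929 within Sgo1-/+ and 0.767 within wild type. In the 8 libraries whose column names carry no suffix, a mark whose meaning the labels do not give, r was 0.838 for H2-Ab1, 0.946 for H2-Eb1, 0.896 for Cd74 and 0.805 for H2-DMb2. The other 4 libraries are too few for a value of their own.

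Ciita, the coactivator, did not pass (r = 0.558, permutation p = 0.0568, adjusted p = 0.136; rho = 0.601, adjusted p = 0.0857). H2-DMa gave r = 0.269 (permutation p = 0.391, adjusted p = 0.469; rho = 0.259, adjusted p = 0.427) and H2-DMb1 r = 0.037 (permutation p = 0.900, adjusted p = 0.900; rho = 0.434, adjusted p = 0.216). Within Sgo1-/+ the r with H2-Aa was 0.886 for Ciita, 0.784 for H2-DMa and 0.868 for H2-DMb1. Within wild type it was 0.468 for Ciita, 0.0030 for H2-DMa and -0.27 for H2-DMb1. The summed B cell, dendritic cell and macrophage markers did not pass either, with r = 0.425, 0.307 and 0.415 (permutation p = 0.168, 0.333 and 0.180; adjusted p = 0.277, 0.444 and 0.277). Their rho was 0.504, 0.399 and 0.552 (adjusted p = 0.148, 0.240 and 0.112). Within Sgo1-/+ the r of B cell markers was 0.680, that of dendritic cell markers 0.181 and that of macrophage markers 0.918, and within wild type 0.344, 0.398 and 0.273 for the same lists. Summed interferon gamma induced genes gave r = 0.204 (permutation p = 0.519, adjusted p = 0.566; rho = 0.252, adjusted p = 0.427). Summed epithelial markers gave r = -0.41 (permutation p = 0.185, adjusted p = 0.277; rho = -0.64, adjusted p = 0.0695), and without wild type replicate 6 r = -0.72 (permutation, adjusted p = 0.0416). Within genotypes r was -0.90 in Sgo1-/+ and -0.19 in wild type for epithelial markers, and 0.294 in Sgo1-/+ and 0.201 in wild type for interferon gamma induced genes. The differences in r between genotypes were not tested.

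**Figure D3:**
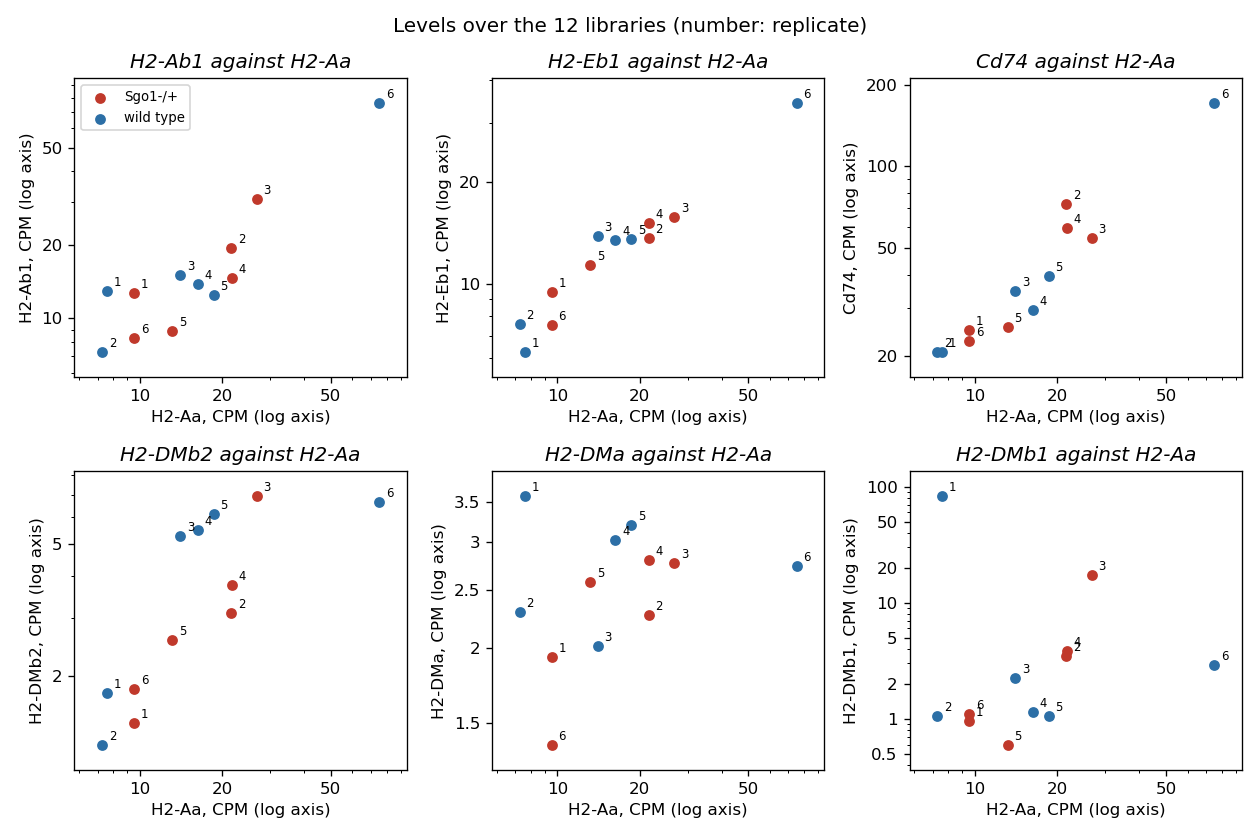
CPM of 6 class II genes against CPM of H2-Aa, both on log axes, 1 point per library (red Sgo1-/+, blue wild type, numbers are replicates). H2-Eb1 and Cd74 climb with H2-Aa in both genotypes (r = 0.970 and 0.962 on log2 CPM), and H2-DMb1 shows wild type replicate 1 at 82.4 CPM with H2-Aa at 7.60 CPM.

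Among 13787 genes, the genes whose pattern over the 12 libraries was most like that of H2-Aa were Cd74, H2-Eb1 and H2-Ab1. Likeness was the root mean square difference of log2 CPM after centring each gene on its own mean, and it was 0.24 for Cd74, 0.33 for H2-Eb1 and 0.38 for H2-Ab1. The fourth was a predicted gene, and Ly6c1 (0.52) and Slfn2 (0.53) came next. H2-DMb2 ranked 9, Ciita 902, H2-DMa 2129 and H2-DMb1 13626. Without wild type replicate 6, H2-Eb1 and Cd74 still held the first ranks, while H2-Ab1 ranked 37, H2-DMb2 74, H2-DMa 2903, Ciita 8681 and H2-DMb1 13631.

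The proportions among the chains held within a narrower range than the levels. The ratio of Cd74 to H2-Aa was 1.95 to 3.36 in Sgo1-/+ libraries, against 1.81 to 2.86 in wild type libraries. The ratio of H2-Ab1 to H2-Aa was 0.68 to 1.33 in Sgo1-/+ libraries, against 0.67 to 1.71 in wild type libraries. In wild type replicate 6, where the genes were highest, these ratios were 2.27 and 1.01, inside the range of the other libraries. The ratio of H2-Eb1 to H2-Aa was lowest in that library, 0.45, where the other 11 libraries had 0.59 to 1.04.

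The rest of the class II pathway showed no difference between the genotypes that passed. Of 18 further pathway genes, 14 passed the filter on low counts. Of these, 6 had a log2 change above 0 and 8 below, with a median of -0.06 beside -0.01 over all genes, and 0 passed in edgeR, 0 at an unadjusted p under 0.05 and 0 in DESeq2. Sppl2a, the protease that clears the last membrane stub of the invariant chain, was at 262 ± 55.7 CPM in Sgo1-/+ libraries and 337 ± 65.1 CPM in wild type libraries (SD, n = 6 each), which differed by -0.36 ± 0.17 on the log2 scale (SE; edgeR adjusted p = 0.551). March1, the ubiquitin ligase that sends surface class II for degradation, had a log2 change of -0.64 ± 0.41 (-0.37 without wild type replicate 1), and Ctsl, an endosomal protease, one of -0.32 ± 0.23. Cathepsin S, encoded by Ctss, spanned 156 to 344 CPM in Sgo1-/+ libraries and 199 to 418 CPM in wild type libraries, with its highest level in wild type replicate 6. The X box and Y box factors Rfx5, Rfxap, Rfxank, Nfya, Nfyb and Nfyc lay between log2 changes of -0.06 and 0.15. H2-Oa, H2-Ob, H2-Eb2 and H2-Ea-ps did not pass the filter. H2-Oa and H2-Ob, which encode the DO molecule that restrains DM, were at most 0.50 and 1.51 CPM in any library.

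The interferon gamma route to Ciita and the interferon gamma induced genes had log2 changes mostly below 0, with no member passing. On the route, 10 of 13 genes passed the filter, with 3 log2 changes above 0, 7 below and a median of -0.12. In edgeR 0 passed and 1 was lower at an unadjusted p under 0.05, where 4.73% of all genes were. That gene was Ifngr2, a chain of the interferon gamma receptor, at 126 to 151 CPM in Sgo1-/+ libraries and 129 to 191 CPM in wild type libraries, a log2 change of -0.25 ± 0.11 (SE; edgeR adjusted p = 0.539). Ifngr1, the other chain, had a log2 change of -0.20 ± 0.16 (-0.09 without wild type replicate 6). Ifng itself did not pass the filter, with 0 to 0.58 CPM in Sgo1-/+ libraries and 0.096 to 9.60 CPM in wild type libraries.

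Of 22 interferon gamma induced genes, 14 passed the filter, 1 with a log2 change above 0 and 13 below, with a median of -0.39, and 0 passed in edgeR. Cd274, which encodes the checkpoint ligand PD-L1, was at 8.17 to 13.6 CPM in Sgo1-/+ libraries and 13.3 to 21.9 CPM in wild type libraries, a log2 change of -0.69 ± 0.18 (SE; edgeR adjusted p = 0.491). Gbp6, a guanylate-binding protein, had a log2 change of -0.88 ± 0.39 (-0.38 without wild type replicate 1), and Psmb10, an immunoproteasome subunit, -0.19 ± 0.12. Of 13 class I presentation genes, 12 passed the filter, 2 above 0 and 10 below, with a median of -0.14. Tapbp, the tapasin that loads class I, had a log2 change of -0.26 ± 0.11, the class I heavy chain H2-D1 -0.27 ± 0.13 and its light chain B2m -0.44 ± 0.22 (-0.28 without wild type replicate 1), with edgeR adjusted p-values of 0.530 to 0.553.

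Markers of the cells that carry class II were measured beside these genes, and their part in the class II levels was not tested. Of the B cell markers 9 of 13 passed the filter and all 9 had a log2 change below 0 (median -0.14, 0 passing), and their summed level was 15.5 to 85.9 CPM in Sgo1-/+ libraries and 12.9 to 87.4 CPM in wild type libraries. Pax5, Cxcr5 and Cr2 had log2 changes of -0.68, -0.32 and -0.26, and for Cr2 it was -0.40 without wild type replicate 1 and -0.08 without wild type replicate 6. The dendritic cell markers summed to 50.5 to 158 CPM in Sgo1-/+ libraries and 82.4 to 269 CPM in wild type libraries, most of it Cd209a, a C-type lectin gene with a median of 94.1 CPM in Sgo1-/+ and 138 CPM in wild type. Of these markers 7 of 13 passed the filter, 1 above 0 and 6 below (median -0.57), among them Batf3 at -1.14, Xcr1 at -0.76 and Cd209a at -0.57. The macrophage markers summed to 83.9 to 170 CPM in Sgo1-/+ libraries and 109 to 202 CPM in wild type libraries, with 9 of 13 past the filter, 2 above 0 and 7 below (median -0.09, 0 passing). Mertk, a receptor for apoptotic cells, was at 43.6 to 59.1 CPM in Sgo1-/+ libraries and 60.2 to 79.7 CPM in wild type libraries, a log2 change of -0.38 ± 0.11 (SE; edgeR adjusted p = 0.491), and Mrc1 and Cd14 had log2 changes of -0.90 and 0.27.

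T cells in mice do not carry class II. Their markers summed to 17.03 to 19.8 CPM in Sgo1-/+ libraries and 21.7 to 34.3 CPM in wild type libraries. With TMM factors these ranges did not overlap, which depends on that scaling. How many of all genes separate in this way was not counted. CD4 T cells read class II, but Cd4 itself did not pass the filter, and the list also holds Cd8a, Gzma and Gzmb. Of the T cell markers 7 of 13 passed the filter, 1 above 0 and 6 below (median -0.61), and 0 passed in edgeR. Cd3g, Gzma and Lck had log2 changes of -0.99, -0.98 and -0.61. Of the plasma cell markers 5 of 8 passed the filter, 2 above 0 and 3 below (median -0.63, 0 passing), with Prdm1 at -0.999, Igha at -0.82 and Jchain at -0.63. Of the epithelial markers 12 of 13 passed the filter, 5 above 0 and 7 below (median -0.00), with Krt20 at -0.43, Krt19 at 0.23 and Vil1 at -0.16. At an unadjusted p under 0.05 in edgeR, 4.73% of all genes were lower and 4.31% higher. Lower were 2 of 14 interferon gamma induced genes, 1 of 12 class I genes, 1 of 7 dendritic cell markers and 1 of 9 macrophage markers. So were 2 of 7 T cell markers, 3 of 5 plasma cell markers, 1 of 12 epithelial markers and 0 of 9 B cell markers, and 0 of any of these lists were higher. DESeq2 called 0 genes of these lists. No marker was at 0 in every library.

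Wild type replicate 6 was the library with most class II transcript, and its summed marker levels were not the highest, though those sums are carried by a few genes such as Cd209a, Pax5, Mertk and Mrc1. The 8 genes summed to 371 CPM there, against 48.0 to 137 CPM in the other 5 wild type libraries and 53.6 to 157 CPM in Sgo1-/+ libraries. H2-Aa, H2-Ab1 and Cd74 were 5.34, 5.86 and 5.77 times the median of the other 5 wild type libraries, H2-Eb1 2.55 times, Ciita 2.54 times and H2-DMb2 1.26 times. H2-DMa, at 0.905 times that median, was not raised there. Its B cell markers summed to 41.6 CPM (12.9 to 87.4 in the other 5 wild type libraries), its dendritic cell markers to 138 CPM (82.4 to 269), its macrophage markers to 141 CPM (109 to 202) and its epithelial markers to 21317 CPM (14984 to 26676). Its interferon gamma induced genes summed to 323 CPM, inside the range of 160 to 400 CPM in the other 5. Gbp2, an interferon induced guanylate-binding protein, was highest there at 33.5 CPM, 3.05 times the median of the other 5, and Ifngr1 was highest there at 294 CPM, while Ifng was at 0.43 CPM. The dendritic cell marker Cd83 was highest there as well, at 15.01 CPM with 12.6 CPM in the next library. So were the summed further pathway genes (1244 CPM, next 1225) and the summed interferon gamma route genes (973 CPM, next 934).

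**Figure D4:**
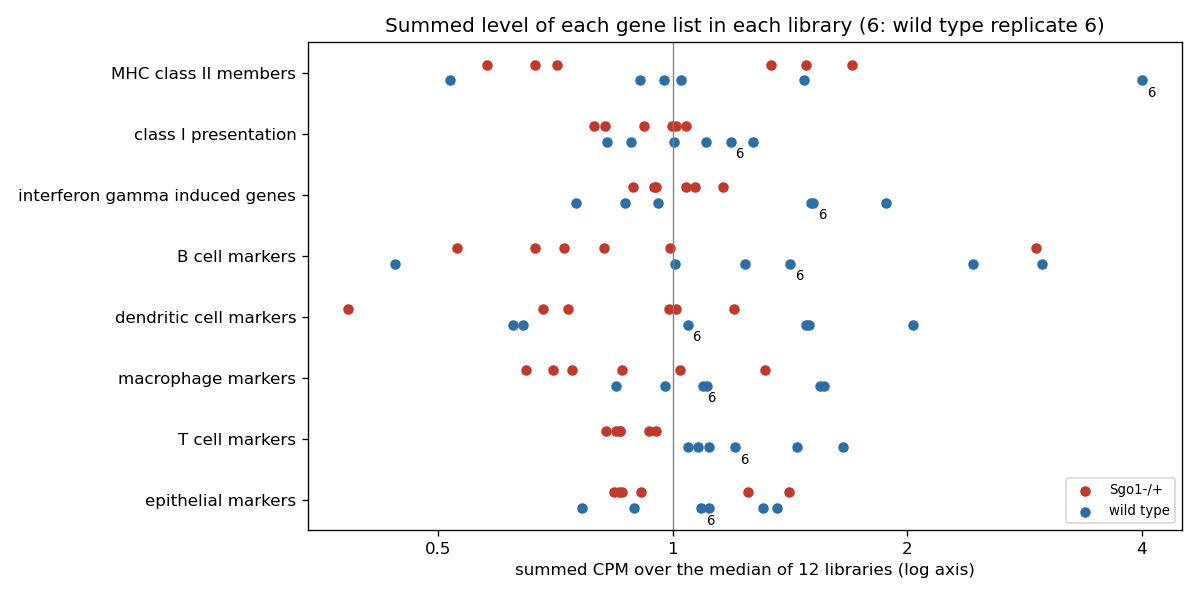
Summed CPM of each gene list in each library, divided by the median of the 12 libraries (log axis), for Sgo1-/+ (red, upper points) and wild type (blue, lower points), with wild type replicate 6 marked. That library lies apart from the others in the class II row, at 371 CPM, and inside the range of the others in the marker rows. With TMM factors the T cell marker points of the genotypes do not overlap, which depends on that scaling.

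The direction of the difference between genotypes was not the same in libraries with and without the suffix on their column names. In the 4 Sgo1-/+ and 4 wild type libraries without it, the log2 change was above 0 for 6 of the 8 genes, at 0.52 for H2-Aa, 0.67 for H2-Ab1, 0.78 for Cd74 and 2.18 for H2-DMb1. Of these 8, 2 had an unadjusted p under 0.05 in edgeR, where 3.98% of all genes in that fit had, and 0 passed the adjusted threshold. In the 2 Sgo1-/+ and 2 wild type libraries with it, all 8 log2 changes were below 0. They were -1.89 for H2-Aa, -2.39 for H2-Ab1, -2.005 for Cd74 and -5.61 for H2-DMb1. Here 2 of the 8 had an unadjusted p under 0.05 in edgeR, where 14.0% of all genes in that fit had, and 0 passed. The 2 wild type libraries with the suffix are replicates 1 and 6, which stood apart above. The split therefore largely repeats leaving them out, and the opposite directions are no separate result on the suffix. Whether the suffix marks a batch is not given in the labels, and the difference between these sets of libraries was not tested. With a term for the suffix in the fit of all libraries, 0 of the 8 passed, and the log2 change was -0.28 for H2-Aa, -0.31 for H2-Ab1, -0.26 for H2-Eb1, -0.11 for Cd74 and -0.015 for H2-DMb1. It was -0.04 for Ciita, -0.31 for H2-DMa and -0.49 for H2-DMb2.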

How the data were processed

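Per the labels' protocols, mucosal RNA was extracted with Trizol, enriched for messenger RNA and read on a MiSeq from TruSeq libraries. The submitters' processing notes name build mm10 and DESeq, while no source used here names the aligner, the counter or its strand setting. Each of 12 files held 38592 rows with a raw and a normalized column, per the file headers. What the authors deposited as raw values are expected counts, as 69.6% of those above 0 were not whole (tolerance 0). The normalized column holds log2 values deposited by the authors, 100.0% of which were recovered within 0.001 from the raw columns, and it was not used for tests.

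Values were rounded to whole counts. The 505 rows without an Ensembl identifier, 1.79% to 5.40% of a library, were left out of totals and tests, which left totals of 5414150 to 9936818 counts and little precision for genes near 1 CPM. The whole table was fitted with edgeR 4.0.16 in R 4.3.3 (glmQLFit and glmQLFTest, TMM factors, filterByExpr at minima of 10 counts and 15 in total), with 6 libraries per genotype and no covariate. P-values were Benjamini-Hochberg adjusted over 13889 genes at a threshold of 0.05. The SE is the absolute log2 change over the square root of F, and the prior count for log2 CPM was 2. DESeq2 1.42.0 was an alternative, in which 9891 genes had no adjusted p, H2-DMb1 among them. Further alternatives varied the scaling, the filter, the replicate block, a term for the suffix, the libraries used, the 4 mitochondrial-like rows and the sum of the DM beta genes, and the fits by suffix were chosen after seeing the data. Exon lengths and shared words of 50 bases come from GENCODE M21, and promoters from RefSeq (GRCm38.p6).

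The 8 genes and all lists were chosen with earlier results of these data known. Of each further list the 3 tested genes with the smallest p are named, with pathway genes below the filter, except 1 gene that is not reported here. As genes most like H2-Aa the 6 nearest with 10 or more counts on average were taken, predicted genes counted and not named. Ctss, Gbp2, Ifng, Epcam, Cd83 and the X box and Y box factors were named after their values were seen. On simulated counts for this comparison with 13889 genes, the edgeR step recovered 46% of 100 genes with a true log2 change of 1 and 93% of 100 with one of 2, and 3 of 142 calls were of unchanged genes. Outlying libraries were not simulated. The simulated spread was the one typical of a gene's level and not each gene's own. These shares may therefore be too high for genes as variable as Cd74 or H2-DMb1.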

Additional observations from a re-analysis of the deposited data

Results flagged for a closer look

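Of 76 groups of 6 libraries examined (each named gene in each genotype), 19 had a highest or lowest library whose gap to the next passed Dixon's 95% limit as a share of the group's range. For normally spread values chance gives such a gap in about 1 in 20 groups. CPM need not be spread so, and the groups share the same libraries, so the number flagged is no test of chance. Of the 16 groups of class II genes 6 were among them. Wild type replicate 6 was far above the other wild type libraries for H2-Aa (75.2 CPM, next 18.7), H2-Ab1 (76.1 CPM, next 15.1), H2-Eb1 (34.2 CPM, next 13.8) and Cd74 (170.6 CPM, next 39.5). H2-DMb1 had 17.3 CPM in Sgo1-/+ replicate 3, where the next library of that genotype had 3.84 CPM, and 82.4 CPM in wild type replicate 1, where the next had 2.89 CPM.

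Sgo1-/+ replicate 3 was the highest of its genotype for the ubiquitin ligase gene March1 (30.9 CPM) and for the B cell genes Pax5 (41.8 CPM), Cxcr5 (5.77 CPM) and Cr2 (7.39 CPM). It was also the highest for the dendritic cell genes Batf3 (2.77 CPM) and Xcr1 (3.46 CPM) and for the plasma cell gene Prdm1 (12.2 CPM), and the lowest for H2-D1 (363.5 CPM). The 4 mitochondrial-like rows took 42.2% of counts in this library, the highest share among Sgo1-/+ libraries, and the part of that share in these values was not tested. Sgo1-/+ replicate 1 was the lowest of its genotype for Tapbp (163 CPM). Among wild type libraries, replicate 1 was the highest for Gbp6 (12.4 CPM). Replicate 3 was the highest wild type library for Prdm1 (25.1 CPM) and Mertk (79.7 CPM), and replicate 5 the lowest for Vil1 (424 CPM).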

How the results depend on the processing

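With edgeR, 0 genes, 0 class II genes and 0 further pathway genes were called under every scaling, filter, term and left-out library tried, except that 1 gene of the whole table was called in the 4 libraries with the suffix, and DESeq2 called 40 genes, none of the 8 among them. The relations of H2-Aa that passed numbered 4 or 5 under every alternative. Directions held less well. Leaving out each library in turn, log2 changes spanned -0.64 to 0.42 for H2-Aa, -0.85 to 0.35 for H2-Ab1, -0.45 to 0.16 for H2-Eb1, -0.49 to 0.59 for Cd74, -0.29 to 0.28 for Ciita, -2.92 to 1.36 for H2-DMb1, -0.98 to 0.0021 for Cxcr5 and -0.96 to 0.16 for Cr2. The r of H2-Aa with H2-DMb1 spanned -0.077 to 0.551 and that with interferon gamma induced genes -0.143 to 0.599. With library totals alone, which moved the median of all genes to 0.31, the log2 change was 0.019 for H2-Eb1, 0.31 for Ciita, 0.0084 for Ctsl, 0.069 for Ifngr2, 0.14 for Ifngr1, 0.16 for Psmb10, 0.069 for Tapbp, 0.047 for H2-D1, 0.0069 for Cr2 and 0.15 for Vil1, and the r of H2-Aa with H2-DMb1 was -0.017. In libraries without the suffix it was 0.52 for H2-Aa, 0.67 for H2-Ab1, 0.17 for H2-Eb1, 0.78 for Cd74, 0.49 for Ciita, 2.18 for H2-DMb1 and 0.020 for Ifngr1, and in those with it 0.30 for Jchain and 0.56 for Cd209a. With the replicate number as a block, 0 genes were called and 1644 had an unadjusted p under 0.05, and the log2 change was 0.025 for H2-Aa, 0.12 for Cd74, 0.14 for Ciita and 0.021 for H2-DMb1. Whether the numbers pair the samples is not in the labels. Deviations of same-numbered libraries correlated at -0.22 to 0.69 over 6 pairs. Of the libraries, 1 Sgo1-/+ and 2 wild type correlated best with their own number. These values gave no clear sign of pairing and cannot settle it. The cause of these reversals was not tested beyond the libraries and scalings named. Depth limits Ciita, H2-DMa and the DM beta genes most, which had at most 47.1 counts in a library, H2-DMb1 in wild type replicate 1, Sgo1-/+ replicate 3 and Sgo1-/+ replicate 4 aside.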
